A study of Mus musculus with 12 samples.

Results

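The effect of inorganic arsenic (iAs) in the presence of adipose-derived stromal cells (ASC) was read from 6 of the 12 TC2Ras tumors of the series, taken as the 3 tumors of the ASC300 group against the 3 of the ASC group, with no control tumor on either side. TC2Ras is a mouse prostate cancer line driven by Ras. Every tumor of both groups grew from 125000 TC2Ras cells implanted under the skin of the flanks together with 1% ASC, primary stromal cells taken from the fat of male GFP-transgenic C57BL/6 mice, and was excised on day 21. ASC300 mice drank water with 300 ppb iAs from implantation on, ASC mice drank water with 0 ppb, and mice of both groups had first eaten a low-arsenic diet. The other 6 tumors, of the A300 group (300 ppb iAs without ASC) and the Control1 group (neither), served only to compare the 2 effects of iAs.

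Cells take up arsenite through aquaglyceroporins, methylate it and export it as glutathione conjugates. Its binding to protein thiols is known to induce metallothioneins through the metal-responsive factor MTF1, antioxidant enzymes through NRF2 and heat shock proteins through HSF1. ASC are mesenchymal cells that can differentiate into adipocytes and that respond to interferons, and a subcutaneous tumor also holds endothelial cells, fibroblasts and leukocytes of the host.

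Each sample was bulk RNA of tumor tissue from 1 mouse, with the tumors of both flanks combined, although the labels give the cell type as ASC. In bulk RNA, fewer cells of a type and less RNA per cell cannot be told apart. Total counts ran from 49818100 to 52924862 in the ASC300 tumors and from 39157647 to 48240025 in the ASC tumors, so that every ASC300 library was deeper than every ASC library. The part of this depth gap in the results was not tested. Vim, a mesenchymal filament gene, lay between 2610 and 3640 CPM (counts relative to the scaled library total) in all 6 tumors, Hras between 37.8 and 51.5 CPM, the leukocyte gene Ptprc between 50.6 and 86.8 CPM and the epithelial gene Epcam between 0.136 and 0.587 CPM. The prostate secretory gene Pbsn had no count in any of the 6. In a principal component analysis, ASC replicate 2 stood apart on the first component (28.95% of the variance, 78.61 against -31.12 to 3.651 for the others) and ASC replicate 3 on the second (22.32%, 69.01).

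Of 55401 genes in the table, 19203 passed the filter on low counts and entered the quasi-likelihood test of edgeR. A gene counted as called if the Benjamini-Hochberg adjusted p was below 0.05 and the fitted levels differed 1.5-fold or more. Gm21982 was called up (0.00521% of the genes tested) and no gene was called down (0%). For all other genes the adjusted p was at least 0.9998. At an unadjusted p under 0.05, 245 genes were higher in ASC300 (1.28%) and 345 were lower (1.8%), where 5% would be passed in both directions together if no gene differed. All 3 ASC300 tumors lay above all 3 ASC tumors for 739 genes (3.85%) and below them for 774 genes (4.03%). The fitted difference was above 0 for 47.2% of the genes and below 0 for 52.8%, with a median log2 fold change of -0.01 and an interquartile range of -0.17 to 0.10. A difference of at least 1.5-fold was fitted for 2386 genes (731 higher, 1655 lower), most of them without a small p.

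Gm21982 is annotated as a processed transcript that spans Haus5, which encodes a subunit of the augmin complex of the mitotic spindle, and Rbm42, an RNA-binding protein gene, on the same strand. Its level was 19.4, 29.0 and 16.5 CPM in the ASC300 tumors and 1.11, 1.34 and 1.90 CPM in the ASC tumors. The groups were far apart, and the log2 fold change was 3.90 ± 0.29 (SE, edgeR adjusted p = 0.0058). Haus5 went the other way, at 11.5, 9.69 and 11.8 CPM in ASC300 against 15.2, 15.7 and 19.4 CPM in ASC (log2 fold change -0.61 ± 0.16, SE, unadjusted p = 0.0038). Rbm42 measured 42.3, 33.6 and 41.5 CPM in ASC300 and 46.0, 49.5 and 64.4 CPM in ASC. Both neighbours were lower in every ASC300 tumor than in every ASC tumor, while Gm21982 was higher in every one.

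Summed over the 3 overlapping genes, the level was 71.7 ± 1.77 CPM (SD, n = 3) in ASC300 and 71.5 ± 12.5 CPM (SD, n = 3) in ASC. The summed groups overlapped, and the edgeR fit gave them a log2 fold change of 0.01 ± 0.12 (SE, adjusted p = 1). The sum of Gm21982 and Haus5 alone was 32.6 ± 5.46 CPM (SD, n = 3) in ASC300 and 18.2 ± 2.72 CPM (SD, n = 3) in ASC. Outside these groups, Gm21982 lay between 0.676 and 3.31 CPM in the A300 tumors and in Control1 replicates 1 and 2, and at 29.6 CPM in Control1 replicate 3, where Haus5 was at 6.77 CPM. Reads of genes that overlap on 1 strand cannot be assigned with certainty, so the values of Gm21982, Haus5 and Rbm42 taken singly are uncertain. The call was lost in the fit of all 12 tumors (log2 fold change 3.91, adjusted p = 1), without ASC replicate 1 (3.73, adjusted p = 0.114) and without ASC replicate 2 (3.85, adjusted p = 0.0715), while the fold change stayed close to that of all 6 tumors.

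**Figure D1:**
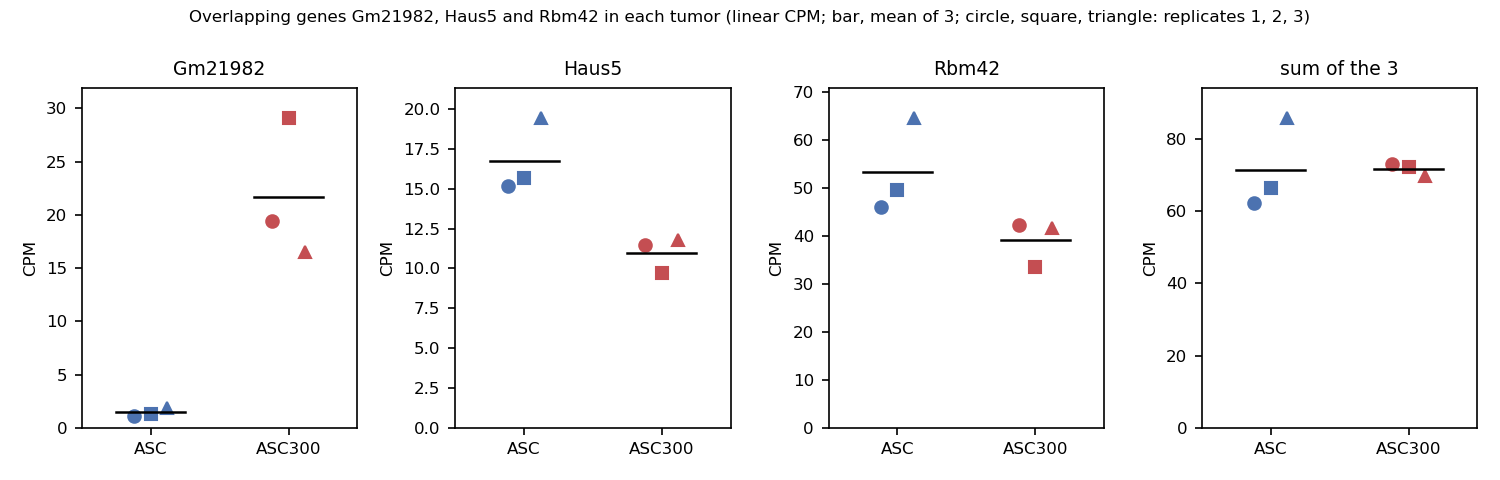
Level of Gm21982, Haus5, Rbm42 and their sum in each tumor, in CPM on linear axes from 0, with ASC tumors in blue and ASC300 tumors in red, 1 point per tumor and a bar at the mean of 3. Gm21982 is high in the 3 ASC300 tumors and both neighbours are low there, while the sums of the 3 genes overlap (means 71.7 and 71.5 CPM).

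Among the other genes with the smallest unadjusted p whose groups did not overlap, 12 higher in ASC300 were taken by the rule for named genes. Slc9a9, an endosomal sodium/proton exchanger, was at 10.4, 10.9 and 7.64 CPM in ASC300 and at 1.11, 2.90 and 3.71 CPM in ASC. Its groups were well apart (log2 fold change 1.91 ± 0.39, SE, unadjusted p = 0.00087), and DESeq2 called it at an adjusted p of 0.000225. Usp43, a deubiquitinase gene, was at 17.0, 16.3 and 14.5 CPM against 9.44, 9.67 and 10.6 CPM (log2 fold change 0.69 ± 0.14, SE, edgeR unadjusted p = 0.00094). Neither group of tumors came near the other for Usp43, whose spread within groups was small. Mgat3, which adds the bisecting sugar to N-glycans, had a log2 fold change of 0.78 ± 0.19 (SE), Mmp12, the macrophage elastase, 0.79 ± 0.22, the incretin receptor Glp1r 0.64 ± 0.19 and the nuclear envelope protein Syne3 0.73 ± 0.22. For Gzmd, a granzyme with near-identical neighbours that can share its reads, the levels were 10.4, 33.2 and 3.51 CPM in ASC300 and 3.46, 2.28 and 1.16 CPM in ASC. The Gzmd groups almost touched, and its log2 fold change moved from 2.76 to 1.59 without ASC300 replicate 2.

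The same rule took 12 genes that were lower in ASC300. Aplnr, the apelin receptor of endothelial cells, was at 13.7, 19.7 and 12.6 CPM in ASC300 and at 21.6, 39.8 and 26.8 CPM in ASC. The highest ASC300 tumor stayed below the lowest ASC tumor, at a log2 fold change of -0.94 ± 0.24 (SE, unadjusted p = 0.0039). Ppbp, a platelet chemokine, was at 1.78, 2.07 and 1.72 CPM in ASC300 and at 3.82, 7.14 and 3.15 CPM in ASC. Ptx3, a secreted pattern recognition protein, was at 2.09, 3.56 and 2.94 CPM against 4.59, 9.56 and 5.66 CPM. For each of Aplnr, Ppbp and Ptx3 the highest level was in ASC replicate 2, and without it their log2 fold changes were -0.66, -0.91 and -0.84. Gbp10, an interferon-induced GTPase that overlaps another gene on its strand, had a log2 fold change of -1.14 ± 0.31 (SE), and Hoxb3os, a transcript antisense to Hoxb3, of -1.43 ± 0.31. DESeq2 called Hoxb3os down at an adjusted p of 0.0251, though reads of the 2 strands may not be told apart in the counts. The 2 other DESeq2 calls were Gm14308, with 277, 35 and 131 counts in ASC300 and 7, 9 and 25 in ASC, and Cox8b, a cytochrome c oxidase subunit of muscle and brown fat, with no count in any ASC300 tumor and 6, 63 and 7 counts in ASC.

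The genes of the arsenic response came first among the lists examined. The metallothioneins Mt1 and Mt2, which bind metals through cysteine clusters, are known to carry the metal-responsive element before their start sites. The RefSeq bases before the starts of Mt1 (chr8:94178939-94179088, plus strand, GRCm38.p6) and Mt2 (chr8:94172390-94172617, plus strand) are shown 5′ to 3′. They end at the base before the start, with matches to TGCACNC or TGCGCNC on either strand in capitals (1 in Mt1, 3 in Mt2). Whether these matches act in a metal response was not tested.
Mt1: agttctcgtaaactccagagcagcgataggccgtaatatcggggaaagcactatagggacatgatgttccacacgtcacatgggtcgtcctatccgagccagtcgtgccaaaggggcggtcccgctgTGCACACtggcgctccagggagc
Mt2: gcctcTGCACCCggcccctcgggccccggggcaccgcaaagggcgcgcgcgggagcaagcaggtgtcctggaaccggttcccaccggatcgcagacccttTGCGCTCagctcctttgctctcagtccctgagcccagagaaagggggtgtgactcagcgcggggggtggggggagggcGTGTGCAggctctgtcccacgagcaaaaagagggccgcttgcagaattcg
Of the 32851 RefSeq promoters, 21.4% held such a match in the 250 bases before the start (1419 of these 7032 promoters overlapped another motif searched), as did 3 of the 4 metallothionein promoters.

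Mt1 was at 212, 161 and 206 CPM in ASC300 and at 174, 129 and 185 CPM in ASC. The groups overlapped, since ASC300 replicate 2 lay below 2 of the ASC tumors, and the log2 fold change was 0.25 ± 0.15 (SE, unadjusted p = 0.14). Mt2 was at 200, 150 and 196 CPM in ASC300 and at 169, 132 and 174 CPM in ASC (0.20 ± 0.14, SE, unadjusted p = 0.19). In both genes replicate 2 was the lowest tumor of its group. No metallothionein had an unadjusted p under 0.05 in this fit. With the replicate number as a block, 2 of the 3 tested were higher at this p, and 2 of 3 also were without ASC300 replicate 2. In the remaining alternatives none was. Mt3 was at or under 1.5 CPM in all 6 tumors (log2 fold change -0.13 ± 0.50, SE), and Mt4 did not pass the filter.

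Of 16 genes of arsenic uptake, methylation and export, 14 were tested. Of these, 1 (Aqp3) had an unadjusted p under 0.05, where 1.28% of all genes were higher at this p. Aqp3, an aquaglyceroporin that also conducts arsenite, was at 27.2, 22.2 and 26.1 CPM in ASC300 and at 18.5, 16.6 and 12.3 CPM in ASC. Every ASC300 tumor was above every ASC tumor, at a log2 fold change of 0.67 ± 0.17 (SE, unadjusted p = 0.0029). That change stayed between 0.52 and 0.80 when any 1 tumor was left out. Other aquaporin genes of the list did not share it. Aqp7 was lower, from -3.20 to -0.27 on leaving out a tumor and nearest 0 without ASC replicate 2. Aqp9 ran from -0.79 to 0.71. The arsenic methyltransferase As3mt was at 11.5, 17.4 and 14.8 CPM against 11.8, 15.9 and 16.7 CPM (-0.02 ± 0.20, SE), and the exporter Abcc1 at 89.7, 89.5 and 88.3 CPM against 95.3, 85.9 and 87.5 CPM (-0.01 ± 0.08, SE). For these 2 genes the groups overlapped throughout. The median of the 14 genes was 0.05, beside -0.01 over all genes tested.

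Targets of NRF2, which switches on antioxidant and glutathione genes, had a median log2 fold change of 0.03 over 28 tested of 30, with 18 higher and 10 lower. G6pdx, the NADPH-producing first enzyme of the pentose phosphate pathway, was at 168, 166 and 173 CPM in ASC300 and at 149, 131 and 155 CPM in ASC. It was the 1 member with an unadjusted p under 0.05 (0.22 ± 0.09, SE, edgeR unadjusted p = 0.036), where 1.28% of all genes were higher at this p. Its groups did not overlap. Nqo1, a quinone reductase, was also higher in each ASC300 tumor (4.98, 5.66 and 6.45 CPM against 4.95, 3.62 and 4.50 CPM), but its groups almost touched. Its log2 fold change was 0.39 ± 0.22 (SE, edgeR unadjusted p = 0.11). These were the 2 of 28 members higher without overlap, beside 3.85% of all genes. Gclm, Srxn1 and Prdx1 lay at 0.08 ± 0.11, 0.03 ± 0.11 and -0.01 ± 0.09 (log2 fold change and SE). Hmox1, the heme oxygenase that arsenite is known to induce, had a log2 fold change of -0.01 ± 0.20 (SE, unadjusted p = 0.95). For the 16 heat shock genes the median was -0.004, with 8 higher and 8 lower and none at an unadjusted p under 0.05, and the inducible Hspa1a was at 30.9, 27.3 and 23.1 CPM against 18.5, 22.8 and 33.9 CPM. The medians were -0.02 for 14 genes of the unfolded protein and integrated stress response and -0.04 for 12 p53 targets, again with no member at an unadjusted p under 0.05.

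**Figure D2:**
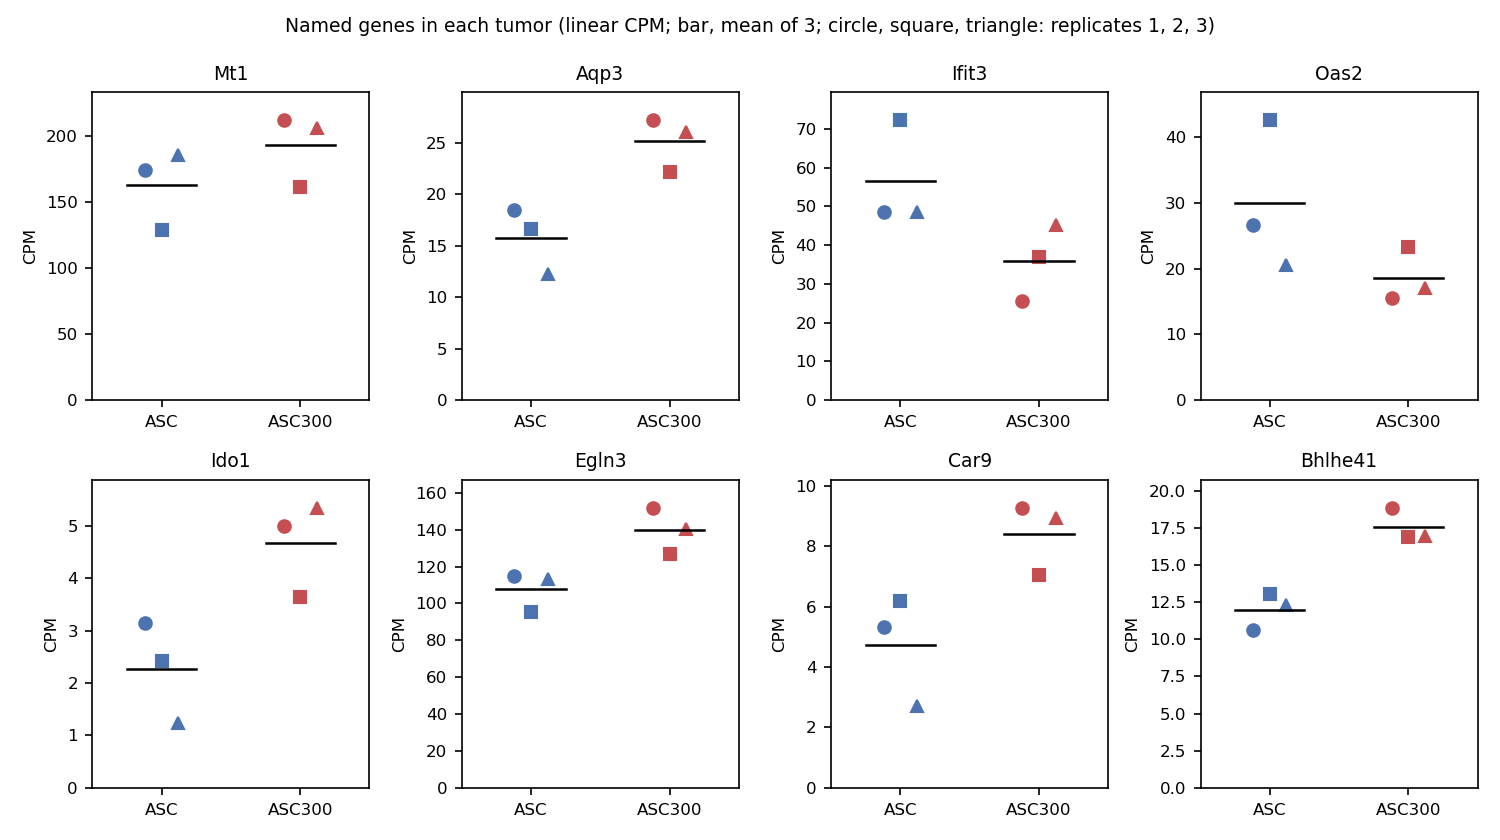
Level of 8 named genes in each tumor, in CPM on linear axes from 0, with ASC tumors in blue, ASC300 tumors in red, 1 point per tumor and a bar at the mean of 3. Aqp3, Ido1, Egln3, Car9 and Bhlhe41 are higher in each ASC300 tumor than in each ASC tumor, Ifit3 is lower in each, and Mt1 and Oas2 overlap.

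The genes of the type I interferon response, which are induced by interferon alpha and beta and hold back viruses, were all on 1 side. All 18 tested members were lower in ASC300, where 52.8% of all genes tested were, with a median log2 fold change of -0.40 beside -0.01 over all genes. Of the 18, 2 had an unadjusted p under 0.05 (1.8% of all genes were lower at this p). For 1 of the 18, Ifit3, the groups did not overlap, beside 4.03% of all genes that were lower in this way. Promoters of 2 members are shown, those with the smallest p among members whose promoter held the interferon-stimulated response element. Interferon acts on these genes through this element. The RefSeq bases before the starts of Ifit3 (chr19:34583368-34583528, plus strand, GRCm38.p6) and Oas1a (chr5:120907526-120907675, minus strand) are given 5′ to 3′, with matches to GAAA, any 2 bases and GAAA again, on either strand, in capitals (2 matches in each, overlapping each other in Oas1a).
Ifit3: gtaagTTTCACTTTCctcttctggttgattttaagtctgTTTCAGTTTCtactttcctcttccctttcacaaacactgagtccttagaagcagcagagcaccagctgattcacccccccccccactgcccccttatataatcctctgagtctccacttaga
Oas1a: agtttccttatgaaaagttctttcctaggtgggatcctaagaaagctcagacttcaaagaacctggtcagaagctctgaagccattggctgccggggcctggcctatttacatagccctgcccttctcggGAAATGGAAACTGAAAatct
Such a match stood in the 250 bases before the start in 2.98% of all promoters (4 of these 978 overlapped another motif searched) and in 6 of 14 promoters of the type I interferon list, where 13 of its 18 genes had an entry.

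Ifit3, which restrains viral translation together with its relatives, was at 25.6, 36.9 and 45.1 CPM in ASC300 and at 48.6, 72.3 and 48.6 CPM in ASC. Its highest ASC300 tumor was below its lowest ASC tumor, at a log2 fold change of -0.66 ± 0.22 (SE, unadjusted p = 0.015). Oas2, a sensor of double-stranded RNA, was at 15.6, 23.3 and 17.0 CPM in ASC300 and at 26.7, 42.6 and 20.5 CPM in ASC (-0.68 ± 0.26, SE, unadjusted p = 0.028). For Oas2 the groups overlapped, through ASC300 replicate 2 and ASC replicate 3. Irf7, the factor that amplifies the response, was at 47.7, 83.6 and 76.2 CPM against 76.3, 123 and 81.8 CPM, and Isg15, a ubiquitin-like modifier, at 22.1, 32.6 and 36.5 CPM against 24.9, 53.2 and 41.5 CPM. In all 4 genes ASC replicate 2 was the highest of the 6 tumors and ASC300 replicate 1 the lowest. The summed level of the 18 genes was 545, 736 and 774 CPM in ASC300 and 740, 1043 and 784 CPM in ASC. Without ASC replicate 2, all 18 genes remained lower, with a median of -0.15 beside -0.01 over all genes, and none had an unadjusted p under 0.05. Without ASC300 replicate 1, 17 of the 18 were lower (median -0.25) and 1 had such a p, and without ASC replicate 3, 9 had. ASC replicate 2 also held the most RNA of monocyte genes (1926 CPM summed over 10 genes against 1083 to 1476 CPM in the others) and of adipocyte genes, and their part in the interferon values was not tested.

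Genes induced by interferon gamma, the cytokine of T and NK cells, did not share this direction. Of 21 tested, 12 were higher and 9 lower, with a median log2 fold change of 0.06. The element given for the type I interferon genes stood in 9 of the 16 promoters found for this list (56.2%), against 42.9% in the type I interferon list. Ido1, which degrades tryptophan and restrains T cells, was at 5.0, 3.64 and 5.34 CPM in ASC300 and at 3.14, 2.42 and 1.23 CPM in ASC. Its groups did not overlap (1.04 ± 0.35, SE, unadjusted p = 0.016). Ciita, the master activator of MHC class II genes, was at 7.71, 21.3 and 19.1 CPM in ASC300 and at 12.1, 7.36 and 5.24 CPM in ASC, so that ASC300 replicate 1 lay among the ASC tumors (0.96 ± 0.40, SE, unadjusted p = 0.040). Irf1 was at 153, 187 and 171 CPM against 161, 144 and 177 CPM, and Cxcl10 at 74.2, 108 and 89.2 CPM against 83.0, 107 and 97.8 CPM. The groups of both genes overlapped. The 12 MHC genes had a median of 0.07, with 9 higher and none at an unadjusted p under 0.05.

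The genes of hypoxia and glycolysis, most of them targets of the oxygen-regulated factor HIF1, leaned the other way. Of 20 tested, 19 were higher in ASC300, where 47.2% of all genes were, with a median log2 fold change of 0.20. For 5 of them the groups did not overlap (3.85% of all genes were higher in this way), and 4 had an unadjusted p under 0.05 (1.28% of all genes). RefSeq promoters of Egln3 (chr12:54203875-54204108, minus strand, GRCm38.p6) and Car9 (chr4:43506876-43507025, plus strand) are shown 5′ to 3′, with matches to the core ACGTG or GCGTG on either strand in capitals. These were the members with the smallest p whose promoter held the core, and both are known targets of HIF1.
Egln3: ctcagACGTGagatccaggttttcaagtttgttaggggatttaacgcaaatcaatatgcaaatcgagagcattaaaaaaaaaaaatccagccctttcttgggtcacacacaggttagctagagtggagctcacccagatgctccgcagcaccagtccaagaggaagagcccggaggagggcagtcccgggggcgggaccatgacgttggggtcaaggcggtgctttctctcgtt
Car9: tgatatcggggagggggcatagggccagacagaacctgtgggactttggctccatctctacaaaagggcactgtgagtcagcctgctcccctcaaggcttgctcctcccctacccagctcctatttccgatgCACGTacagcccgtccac
A core of these 5 letters stood in 38.6% of all promoters (1685 of these 12679 overlapped another motif searched) and in 23 of 27 promoters of the list, where 19 of its 20 genes had an entry.

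Egln3, the oxygen sensor that HIF1 itself induces, was at 152, 127 and 140 CPM in ASC300 and at 115, 95.4 and 113 CPM in ASC. No tumor of 1 group reached the other, at a log2 fold change of 0.37 ± 0.11 (SE, unadjusted p = 0.0063). Car9, a membrane carbonic anhydrase that acidifies hypoxic tissue, was at 9.27, 7.05 and 8.93 CPM against 5.33, 6.18 and 2.71 CPM (0.83 ± 0.30, SE, unadjusted p = 0.021). Ankrd37 (0.34 ± 0.13, SE) and Gapdh (0.26 ± 0.10, SE) were the other members with an unadjusted p under 0.05, and the groups did not overlap for either. The lactate dehydrogenase Ldha was at 1302, 1164 and 1215 CPM in ASC300 and at 1123, 925 and 1145 CPM in ASC, also without overlap. Vegfa (0.32 ± 0.16, SE) and the glucose transporter Slc2a1 (0.29 ± 0.15, SE) overlapped, and Hif1a, which is regulated mostly as a protein, was at 250, 233 and 237 CPM against 272, 239 and 186 CPM. The summed level of the 20 genes was lowest in ASC replicate 2 (8149 CPM) and lay between 9927 and 11248 CPM in the other 5 tumors. Without that tumor 16 of the 20 genes were higher, with a median of 0.11 beside -0.01 over all genes, and 3 had an unadjusted p under 0.05. The 4 genes at this p became 1 without ASC300 replicate 1 and 2 without ASC300 replicate 3, and 7 without ASC replicate 1 and 6 without ASC replicate 3.

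**Figure D3:**
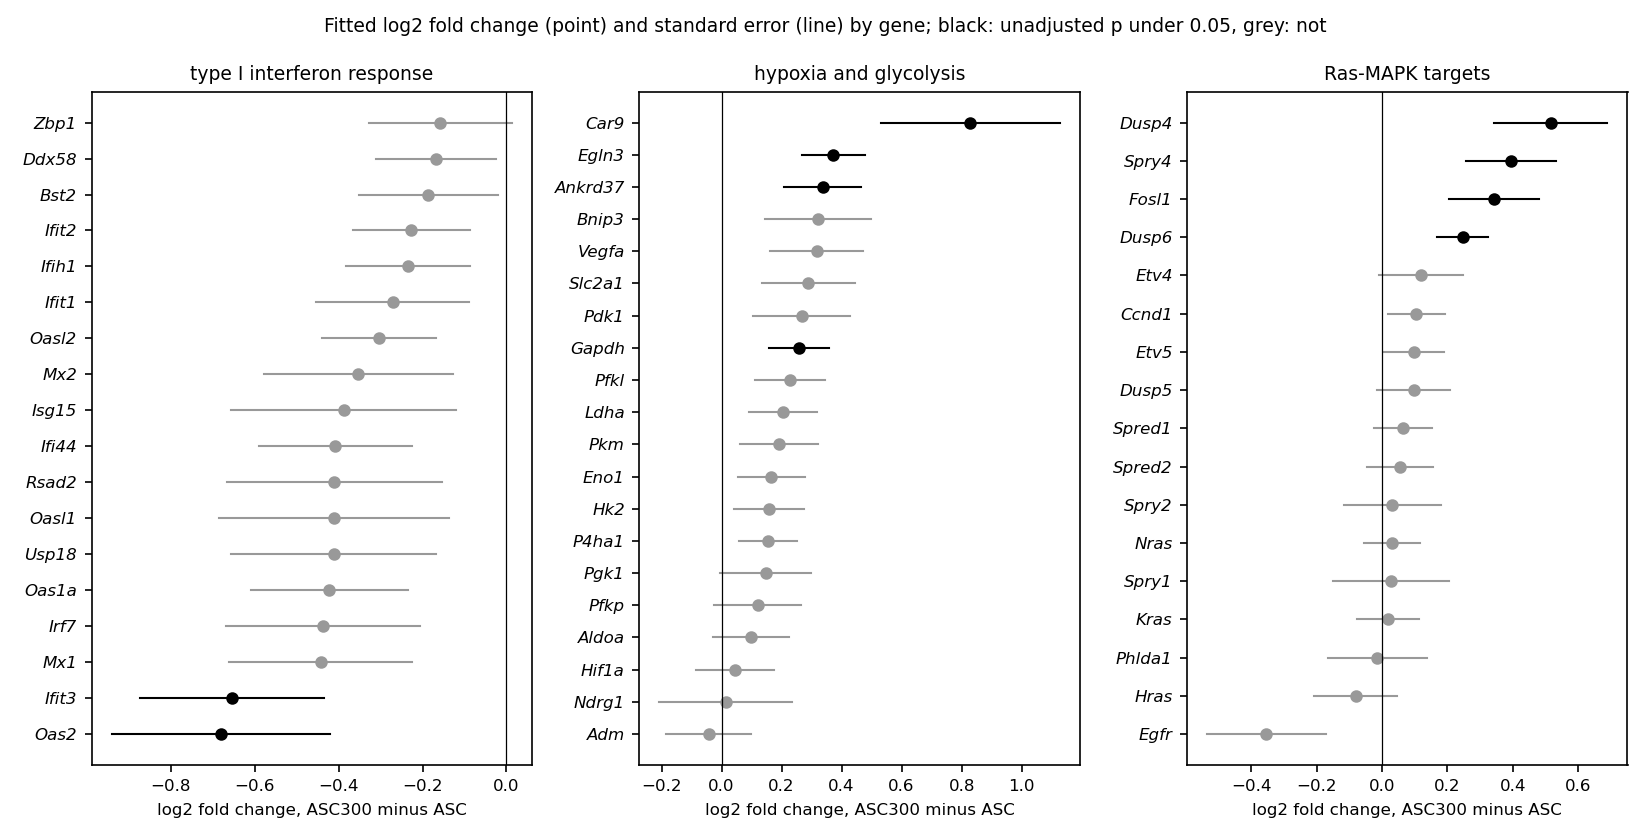
Fitted log2 fold change of ASC300 against ASC (point) with its standard error (line) for each tested gene of the type I interferon, hypoxia and glycolysis, and Ras-MAPK lists, with genes at an unadjusted p under 0.05 in black and the others in grey. All 18 interferon genes lie left of 0, 19 of 20 hypoxia and glycolysis genes right of it, and the 4 Ras-MAPK genes in black all lie to the right.

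Feedback targets of the Ras-MAPK pathway, which the TC2Ras cells drive, included 4 of 17 members at an unadjusted p under 0.05, all higher in ASC300 (1.28% of all genes were higher at this p). That count was 0 without ASC300 replicate 1 and 2 without ASC300 replicate 3, ASC replicate 2 or ASC replicate 3. Dusp6, a phosphatase that inactivates ERK, was at 118, 115 and 113 CPM in ASC300 and at 101, 92.1 and 98.4 CPM in ASC. These groups did not overlap (0.25 ± 0.08, SE, unadjusted p = 0.012). Dusp4 (0.52 ± 0.17, SE), the inhibitor Spry4 (0.39 ± 0.14, SE) and the AP-1 subunit Fosl1 (0.34 ± 0.14, SE) overlapped between groups. Over the list 14 genes were higher and 3 lower, with a median log2 fold change of 0.07, and Egfr was lower by the largest amount (-0.35 ± 0.18, SE, unadjusted p = 0.082). Immediate early genes, which growth factor signals and tissue handling both induce, were higher for 15 of 17, with a median of 0.12 that became -0.01 without ASC replicate 1. Ier3 was the 1 member of these with an unadjusted p under 0.05 (0.26 ± 0.09, SE). Among 16 clock genes, which had a median of 0.02, 2 repressors had an unadjusted p under 0.05, where 1.28% of all genes were higher at this p. Bhlhe41 was at 18.9, 16.9 and 17.0 CPM in ASC300 and at 10.6, 13 and 12.3 CPM in ASC (0.55 ± 0.14, SE, unadjusted p = 0.0034), and Bhlhe40 at 80.7, 78.1 and 66.7 CPM against 57.8, 65.0 and 53.1 CPM (0.36 ± 0.11, SE, unadjusted p = 0.010). Both were higher in every ASC300 tumor than in every ASC tumor, as were 3.85% of all genes. Arntl, which encodes the clock activator BMAL1, was lower in every ASC300 tumor (17.4, 18.8 and 17.4 CPM against 21.0, 23.3 and 19.5 CPM), as were 4.03% of all genes. Per1, Per2, Dbp and Nr1d1 lay within 0.10 of 0.

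Adipocyte genes had the median farthest from 0 of all 52 lists, and that median rested on 1 tumor. All 14 adipocyte genes were lower in ASC300, with a median log2 fold change of -2.37, and 7 had an unadjusted p under 0.05. Over all genes tested 52.8% were lower, and 1.8% were lower at this p. Adipoq, the adipokine adiponectin, was at 0.147, 4.48 and 2.36 CPM in ASC300 and at 1.19, 55 and 1.65 CPM in ASC. Fabp4, the fatty acid carrier of adipocytes, was at 30.0, 45.7 and 40.7 CPM against 38.1, 361 and 45.9 CPM. In both genes ASC replicate 2 stood far above the other 5 tumors, which overlapped. The summed level of the 14 genes was 1424 CPM in ASC replicate 2 and between 139 and 221 CPM in the others. Without ASC replicate 2 the median turned to 0.21, with 10 of 14 genes higher. Scd1, the fatty acid desaturase, followed the same tumor (1029 CPM there and 107 to 141 CPM elsewhere), whereas Fasn and Acly, which tumor cells also express, lay at -0.15 ± 0.12 and -0.05 ± 0.08 (log2 fold change and SE).

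Skeletal muscle genes were lower for 14 of 16 tested, with a median log2 fold change of -1.63. The summed level of the listed muscle genes, tested or not, was 70.8, 176 and 7.74 CPM in ASC300 and 67.4, 492 and 182 CPM in ASC. The groups overlapped, and the levels varied widely within each. Actn3, a fast-fibre actinin, was at 1.39, 2.47 and 0.214 CPM against 2.92, 16.9 and 6.28 CPM and did not overlap (-2.68 ± 0.81, SE, unadjusted p = 0.0093). Without ASC replicate 2 the median was -0.79 with 12 of 16 lower. Muscle of the body wall lies next to tumors of the flank, and whether its share in the sample differed was not tested.

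Endothelial genes were lower in ASC300 for all 12 tested, with a median log2 fold change of -0.24. Plvap, which forms the diaphragms of fenestrated vessels, was at 46.1, 56.4 and 50.8 CPM in ASC300 and at 59.6, 74.8 and 59.3 CPM in ASC. Its groups did not overlap (-0.34 ± 0.12, SE, unadjusted p = 0.022). Pecam1 was at 60.7, 80.1 and 47.4 CPM against 76.4, 96.2 and 77.1 CPM (-0.41 ± 0.18, SE, unadjusted p = 0.050), and Cdh5, Kdr and Flt1 lay at -0.22, -0.32 and -0.07. The summed level of the list was 335, 393 and 298 CPM in ASC300 and 384, 481 and 380 CPM in ASC, and without ASC replicate 2 the median was -0.17 with 10 of 12 lower. No endothelial gene had an unadjusted p under 0.05 without ASC300 replicate 1, ASC300 replicate 3 or ASC replicate 2. Markers of cancer-associated fibroblasts were lower for 11 of 14 (median -0.23). Acta2, smooth muscle actin, was at 13.8, 16.9 and 13.8 CPM against 18.8, 44.7 and 18.6 CPM (-0.89 ± 0.32, SE, unadjusted p = 0.021), while Pdgfrb and Pdgfra lay at 0.05 ± 0.11 and -0.03 ± 0.10. Without ASC replicate 2, Acta2 was at -0.34 and the fibroblast median at -0.06. The 14 genes listed for ASC themselves had a median of -0.03, with 6 higher and 8 lower. Of these, 2 were lower at an unadjusted p under 0.05 (1.8% of all genes were) and 0 higher. The count of lower genes was 5 with DESeq2 or with the replicate number as a block. It was 0 without ASC300 replicate 1, ASC300 replicate 3 or ASC replicate 2.

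**Figure D4:**
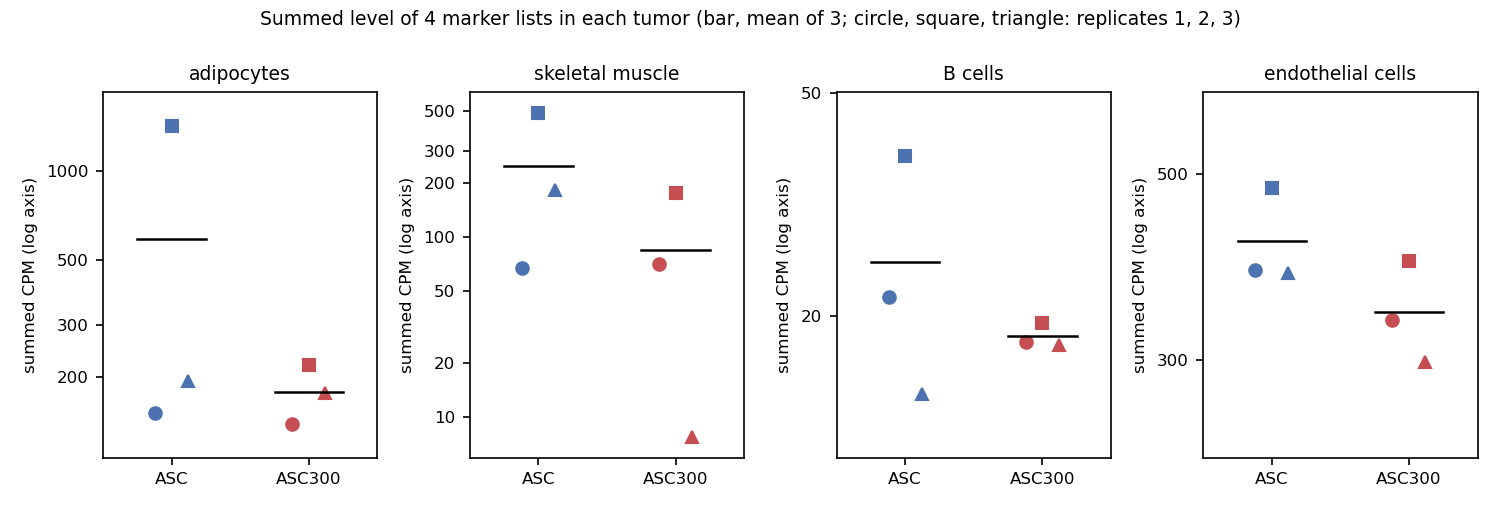
Summed level of 4 marker lists in each tumor, over all listed genes, tested or not. Axes are CPM on a log scale, with ASC tumors in blue, ASC300 tumors in red and a bar at the mean of 3. ASC replicate 2 (blue square) is the highest tumor in all 4 panels, at 1424 CPM for adipocyte genes, and the muscle genes span 7.74 to 492 CPM.

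Among leukocyte lists, all 10 monocyte genes were lower in ASC300 (median log2 fold change -0.42). The 1 member with an unadjusted p under 0.05 was Chil3, where 1.8% of all genes were lower at this p. Chil3, a chitinase-like protein of myeloid cells, was at 1.96, 1.68 and 1.70 CPM in ASC300 and at 3.12, 3.41 and 2.78 CPM in ASC, without overlap (-0.80 ± 0.25, SE, unadjusted p = 0.011). Without ASC replicate 2, 7 of the 10 genes were lower and the median was -0.14. All 11 tested B cell genes were lower (median -0.54), none with an unadjusted p under 0.05, and the median turned to 0.16 without ASC replicate 2. Macrophage genes had a median of -0.04, with 5 of 14 higher. Of 10 neutrophil genes tested, 4 were higher and 6 lower, with a median of -0.10 that turned to 0.30 without ASC replicate 2. The 1 member with an unadjusted p under 0.05 was S100a8, an alarmin of neutrophils that was under 1 CPM in all 6 tumors. It was at 0.202, 0.352 and 0.234 CPM in ASC300 and at 0.855, 0.752 and 0.765 CPM in ASC (-1.58 ± 0.48, SE, unadjusted p = 0.0095). Its partner S100a9 had the opposite sign (0.70 ± 0.42, log2 fold change and SE, unadjusted p = 0.13).

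T cell genes had a median log2 fold change of -0.14 over 16, CD8+ effector genes of 0.05 over 14, regulatory T cell genes of 0.07 over 8 and NK genes of 0.04 over 12. Cd8a was at 14.7, 8.59 and 20.5 CPM in ASC300 and at 14.6, 10.9 and 16.8 CPM in ASC, and Ifng at 1.83, 2.19 and 3.47 CPM against 2.27, 1.72 and 2.23 CPM. Both overlapped. Ncr1, the NK receptor NKp46, was higher in every ASC300 tumor (1.45, 2.37 and 1.46 CPM against 0.914, 0.322 and 0.951 CPM, log2 fold change 1.26 ± 0.46, SE, unadjusted p = 0.024). Of the checkpoint genes, Cd274 (PD-L1) was at 34.6, 34.7 and 32.6 CPM in ASC300 and at 30.8, 31.2 and 26.8 CPM in ASC, a small separation without overlap (0.20 ± 0.10, SE, unadjusted p = 0.086). Btla was lower in every ASC300 tumor (1.1, 1.02 and 1.38 CPM against 2.31, 2.31 and 1.55 CPM, -0.82 ± 0.32, SE, unadjusted p = 0.030). Pdcd1 and Lag3 overlapped, at -0.18 ± 0.26 and 0.11 ± 0.20. Further genes measured in the study, Tgfb1, Arg1, Il1b and Nos2, lay at -0.003 ± 0.093, 0.38 ± 0.23, 0.35 ± 0.28 and -0.02 ± 0.31 (log2 fold change and SE), each with overlapping groups.

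Over all 52 lists, which held 714 genes, no member was called. The median log2 fold change was within 0.1 of 0 for 31 lists, at or above 0.1 for 5 and at or below -0.1 for 16. Without ASC replicate 2 these counts were 34, 11 and 7. Cytosolic ribosomal proteins (-0.003 over 25 genes), cell cycle genes (-0.003 over 20) and chromatin and RNA regulators (0.02 over 24) were among those near 0. Of the 5 lists with every tested member lower (type I interferon, endothelial, monocyte, B cell and adipocyte genes), the type I interferon list was the 1 for which that still held without ASC replicate 2.

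The last comparison set this effect of iAs against its effect without ASC, A300 minus Control1, in 1 fit of all 12 tumors that tested 20818 genes. The 2 effects share no tumor. No gene was called for the difference between them (0%). For it 13.6% of the genes had an unadjusted p under 0.05, where 5% would if no gene differed. Without ASC, 2324 genes (11.2%) were higher and 2701 (13%) lower with iAs at an unadjusted p under 0.05. With ASC, 307 genes were higher and 362 lower at this p in the same fit. Over the 19196 genes tested in both fits the log2 fold changes of the 2 effects had a Pearson r of 0.0752 and a Spearman rho of 0.0506, and 52.5% had the same sign, a description across genes, which are not replicates.

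Tgfb1, the growth factor TGF-beta 1, had a log2 fold change of 0.01 with ASC and 0.63 ± 0.08 (SE) without, a difference of -0.62 ± 0.12 (SE, unadjusted p = 0.0002, adjusted p = 0.309). Cebpb, a factor of myeloid and fat cell differentiation, was at -0.04 with ASC and at 1.09 ± 0.15 (SE) without. Mbnl1, a splicing regulator, was at 0.02 with ASC and at -0.61 ± 0.09 (SE) without. These genes were picked for a small unadjusted p of the difference, Tgfb1 also as a gene measured in the study. A gap between their effects with and without ASC therefore follows from the choice. Their changes were near 0 with ASC and away from it without, and their differences had the same adjusted p of 0.309. Ido1 and Ciita had opposite signs, at 1.05 and 0.96 with ASC and at -1.46 ± 0.65 and -1.54 ± 0.68 (SE) without (adjusted p of the difference 0.309 and 0.320). Among the tumors without ASC, T cell genes summed to 145 CPM in Control1 replicate 1 and to 23.5 to 32.8 CPM in the others. Whether the changes of Ido1 and Ciita without ASC rested on that tumor was not tested. Egln3 was at 0.38 with ASC and at -0.08 ± 0.10 (SE) without.

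Among the lists, the 18 type I interferon genes had a median log2 fold change of -0.39 with ASC in this fit and of -0.16 without, where 6 were higher and 12 lower, and none of them had an unadjusted p under 0.05 for the difference. The hypoxia and glycolysis genes had medians of 0.21 and 0.10. For neuronal and synaptic genes the medians were -0.17 with ASC and 1.88 without, for cytosolic ribosomal proteins 0.01 and 0.35, and for chromatin and RNA regulators 0.03 and -0.25. An unadjusted p under 0.05 for the difference was reached by 10 of 16 neuronal, 14 of 25 ribosomal and 6 of 24 chromatin genes. Over all genes tested the share was 13.6%. The lists were chosen with earlier results of these data known, so these counts and medians are descriptions. B cell genes had a median of -0.53 with ASC and of -3.70 without, where their summed level was 277 CPM in Control1 replicate 1 and 11.3 to 17.9 CPM in the other A300 and Control1 tumors. In the 6 tumors with ASC it ran from 14.5 to 37.1 CPM.

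**Figure D5:**
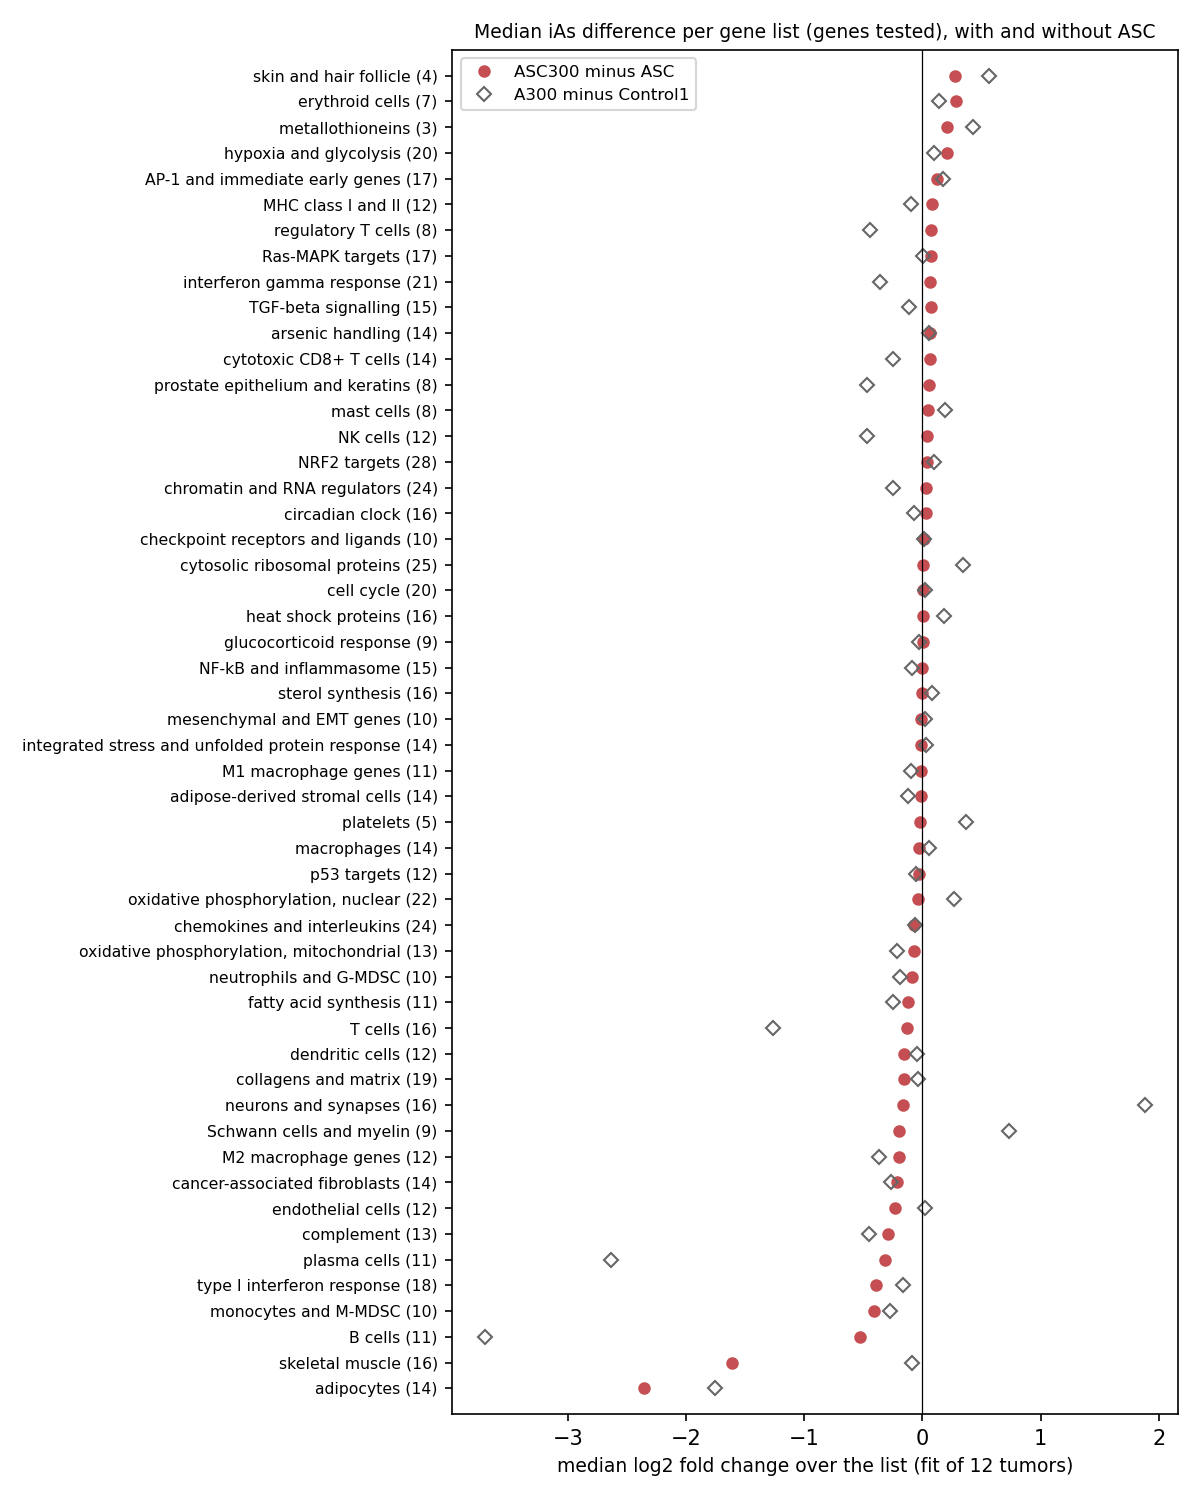
Median log2 fold change of each of 52 gene lists (number of genes tested in parentheses) with iAs in tumors with ASC (ASC300 minus ASC, filled red circles) and without (A300 minus Control1, open diamonds), both from the fit of 12 tumors. The circles lie farthest from 0 for adipocyte (-2.36) and muscle genes (-1.61), followed by B cell (-0.53), monocyte (-0.41) and type I interferon genes (-0.39), while the diamonds reach 1.88 for neuronal genes and -3.70 for B cell genes.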

How the data were processed

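RNA of 12 TC2Ras tumors, 3 per group, was sequenced in paired ends from poly(A)-selected stranded libraries, and the 6 tumors with ASC were compared. Per the submitters' processing notes and the study's methods, reads were trimmed with Cutadapt 1.1.0, aligned with HISAT2 2.0 and assembled with StringTie 1.3.4. The authors deposited whole-number counts per Ensembl gene. The genome build, annotation, counting step and its use of strand are not given in the sources used here. Low counts were more often multiples of 4 than other values.

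Counts were filtered by edgeR's filterByExpr (minimum count 10), scaled by TMM and tested with edgeR 4.0.16 (glmQLFit and glmQLFTest, R 4.3.3) with Benjamini-Hochberg adjustment over all genes tested, as ASC300 minus ASC in 6 tumors. The difference from A300 minus Control1 was fitted over 12 tumors. The scripts were tested on simulated data. An adjusted p under 0.05 and a 1.5-fold change made a call. The common biological coefficient of variation was 25.9%. With 3 mice against 3, an exact two-sided permutation test cannot go below 0.1.

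Named genes were up to 12 per direction with the smallest unadjusted p, at least 1.5-fold, without overlap between groups and with an average log2 CPM over 0 (predicted genes left out), genes measured in the study, up to 4 per list with the smallest p, all metallothionein, arsenic handling, NRF2 and heat shock genes, and up to 5 per direction for the difference of the effects. Gm14308 and Cox8b were named after their values were seen. Members and lists were chosen with earlier results of these data known, so list counts are descriptions. Overlaps between genes were taken from GENCODE M21 and promoters from RefSeq (GRCm38.p6). The promoters shown are those of the list members with the smallest p whose promoter held the motif. Alternatives were DESeq2 1.42.0, its size factors, other filters, counts summed by symbol, counts divided by 4, a GC correction, all 12 tumors, no fold minimum, unadjusted p, a replicate block, each tumor left out and, chosen after seeing the data, the summed Gm21982 locus.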

Additional observations from a re-analysis of the deposited data

How the results depend on the processing

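The 1 call up and 0 calls down became 3 and 2 with DESeq2, and 107 and 278 at an unadjusted p under 0.05 with the fold minimum. With all 12 tumors in the fit, or with the Gm21982 locus summed, 0 genes were called up. Leaving out 1 tumor at a time gave 0 to 2 calls up and 0 to 3 down. Without ASC replicate 1 or ASC replicate 2 no gene was called up. Without ASC300 replicate 3 the calls were Gm21982 and Gm20521 up and Sept2, Cpeb4 and Kantr down, and without ASC replicate 3 they were Gm21982 and Syne3. For the difference of the iAs effects, the 0 calls became 174 with DESeq2, which set no adjusted p for 17049 genes, 1211 at an unadjusted p under 0.05, and 0 to 1 when a tumor was left out (1 without A300, ASC300 or ASC replicate 3). The cause of these changes was not tested.

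With the replicate number as a block, 1 gene was called up and 0 down, and 0 for the difference of the effects, while an unadjusted p under 0.05 was reached by 353 genes higher and 548 lower. Deviations from the group means correlated at 0.0755, 0.11 and 0.0313 in same-numbered tumors, so the numbers were not taken to pair them, although each ASC300 tumor correlated best with its own number.

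Over 293 named genes, 169 of 4362 alternative values changed sign, 138 of them on leaving out a tumor, and none was a called gene. Over 52 lists, 88 of 780 medians changed sign.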

Other observations

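Some abundant genes had 1 tumor far from the other 5, a pattern looked for after values were seen. Of 10073 genes with a median of at least 10 CPM, 15 (0.149%) had 1 tumor at least 8-fold from the nearest of the others, 13 of them lower and 2 higher. ASC replicate 3 held 6 of the low values. Tgfbr1, a receptor of TGF-beta, was at 1.21 CPM there and at 39.5 to 54.5 CPM in the others. Fgf2, a growth factor of fibroblasts and vessels, was at 0.0928 CPM there against 11.1 to 13.7 CPM, and Hnrnpa3, an RNA-binding protein, at 17.5 CPM against 145 to 179 CPM. Bend3 was low in ASC replicate 2 (0.295 CPM against 18.8 to 23.1 CPM) and Zfp62 in ASC300 replicate 2 (0.626 CPM against 19.1 to 32.5 CPM). The 2 genes with a high value were Car3, a carbonic anhydrase of fat and muscle, and Hp, haptoglobin, both in ASC replicate 2, at 241 and 314 CPM. Of the 15 genes, 7 (46.7%) overlapped another gene on the same strand, as did 24.2% of all genes at this level.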
